A study of Mus musculus with 8 samples.

Results

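The genes described here are the receptor Csf1r, its ligands Csf1 and Il34, and 7 genes used to mark macrophages: Adgre1, Cd68, Cd14, Lyz2, Mrc1, Cd163 and Ptprc. They are 10 of the 17097 genes measured. Each was taken from the probe sets annotated to that symbol alone, and a gene's level is that of its probe set with the highest mean over the 8 arrays. Csf1r was selected on its measured difference in level between old and young arrays, so its own values are a description with no test. The other 9 genes were listed to ask whether macrophage RNA moved with it, with earlier results of these data known.

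The study compared dermal fibroblasts of 4 old mice, aged 18 months, with those of 4 young mice, aged 2 months, with 1 Affymetrix perfect-match array per mouse. Skin was freed of its subdermis and digested with collagenase, and cells were sorted as positive for Pdgfra and CD34 and negative for CD45, CD117, CD24, CD31 and EpCam. The gate was therefore set to leave out leukocytes, mast cells, endothelial cells and epithelial cells. Strain and sex are not given in the labels used here, and the labels name no altered gene and no agent. One young and one old mouse were killed on each collection day.

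CSF1R is a receptor tyrosine kinase that dimerises when it binds CSF1 or IL-34, and its signal keeps monocytes and tissue macrophages alive and dividing. In skin, fibroblasts make CSF1, while IL-34 comes mainly from keratinocytes and maintains Langerhans cells. Csf1r RNA is known chiefly from macrophages and related myeloid cells, which carry CD45 on their surface.

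The markers of the gate were measured first. Cd34 lay between 11.57 and 11.79 in the old and between 11.63 and 11.81 in the young arrays, on the log2 scale on which all levels and differences here are given. Pdgfra, the platelet-derived growth factor receptor used to choose the cells, lay between 8.34 and 8.64 in the old and between 8.20 and 8.54 in the young arrays. Of the 7 genes that encode the sort markers, none passed the test across all genes (limma, adjusted p under 0.05), against 17.5% of all genes. Nearest to the threshold was Cd24a, which encodes the surface glycoprotein CD24, at -0.67 in old minus young (adjusted p = 0.0515). It passed under 8 of the alternative settings, among them the omission of old replicate 4 or young replicate 1, with a lowest adjusted p of 0.00643. Epcam passed under 2 of them, and Pecam1, which encodes CD31, passed without old replicate 1 (adjusted p = 0.0149). Array medians ran from 5.19 to 5.34. A set of 9 non-specific control probe sets rich in G and C averaged 5.38 to 5.98 in the old and 6.13 to 6.41 in the young arrays, so this background measure and age cannot be told apart.

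Csf1r stood at 6.70, 6.64, 6.71 and 6.56 in the old arrays, against 8.37, 8.37, 8.81 and 8.73 in the young arrays. All old values lay below all young values, and the gap between the groups was far wider than the spread inside either. The means were 6.65 ± 0.07 in old and 8.57 ± 0.23 in young fibroblasts (SD, n = 4 each), a difference of -1.92 ± 0.11 (SE) and a 3.78-fold lower level. In 18 of the 17097 genes the difference was more negative. With the background measure as a covariate it was -1.97. A single probe set reports the gene. In sorted bulk cells, fewer Csf1r-expressing cells and less Csf1r RNA per cell cannot be told apart.

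Neither ligand passed the test. Csf1, the ligand that circulates and is made by many stromal cells, stood at 10.92, 11.02, 10.94 and 11.28 in the old arrays, against 10.87, 10.96, 11.04 and 11.25 in the young arrays. The groups overlapped almost completely, and the difference was 0.01 ± 0.10 (SE; adjusted p = 0.964), with a 95% confidence interval of -0.22 to 0.24. Its other 3 probe sets gave 0.03, -0.02 and 0.06, and none of the 4 passed in the fit over all 28898 probe sets with a single symbol, of which 16.8% passed. Il34, the alternative ligand, stood at 5.39, 5.70, 5.63 and 5.62 in the old arrays, against 5.44, 5.22, 5.52 and 5.61 in the young arrays. These groups overlapped too, with a difference of 0.14 ± 0.10 (SE; adjusted p = 0.396).

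Of the 9 genes other than Csf1r, 1 was higher in old fibroblasts and none was lower, against 9.87% of all genes higher and 7.66% lower. With an unadjusted p under 0.05 there were 2, Lyz2 and Ptprc, both higher, and in the same 2 genes the old values did not overlap the young ones, a separation seen in 21.3% of all genes.

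Lyz2, which encodes the lysozyme of macrophages and neutrophils, was the gene that passed. It stood at 5.92, 5.95, 5.79 and 5.55 in the old arrays, against 4.74, 4.24, 4.85 and 5.05 in the young arrays. Every old value was above every young value, and the difference of 1.08 ± 0.16 (SE) was a 2.12-fold higher level (adjusted p = 0.00155). With the background measure as a covariate the difference was again 1.08, with an adjusted p of 0.192. The paralog Lyz1, best known from Paneth cells of the intestine, differed by 0.025, at 5.015 ± 0.05 in old and 4.99 ± 0.08 in young fibroblasts (SD, n = 4 each; adjusted p = 0.841). The probe set of Lyz2 is of a class that can share probes with related transcripts, so a share of its signal from another lysozyme was not tested.

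The promoters of the 2 lysozyme genes and of Cd68 are shown because the lysozymes are neighbouring relatives with unlike age differences and Cd68 is a macrophage gene with none that passed. Each window runs from 250 bases before to 50 bases after the start, 5′ to 3′ on the gene's minus strand, from RefSeq with build GRCm38.p6, in which 6 of the 10 genes had a window. Capitals mark 2 motifs on either strand, GAGGAA, a sequence bound by the macrophage factor PU.1, and TTNNGNAA, bound by C/EBP factors. The windows lie at chr10:117282223-117282522 for Lyz2, chr10:117292819-117293118 for Lyz1 and chr11:69666121-69666420 for Cd68.
Lyz2: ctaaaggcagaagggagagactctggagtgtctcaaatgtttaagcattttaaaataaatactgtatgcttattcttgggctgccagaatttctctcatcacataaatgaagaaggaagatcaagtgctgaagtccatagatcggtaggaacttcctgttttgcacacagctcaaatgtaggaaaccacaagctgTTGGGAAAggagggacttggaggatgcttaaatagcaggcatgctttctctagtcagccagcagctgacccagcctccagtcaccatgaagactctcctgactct
Lyz1: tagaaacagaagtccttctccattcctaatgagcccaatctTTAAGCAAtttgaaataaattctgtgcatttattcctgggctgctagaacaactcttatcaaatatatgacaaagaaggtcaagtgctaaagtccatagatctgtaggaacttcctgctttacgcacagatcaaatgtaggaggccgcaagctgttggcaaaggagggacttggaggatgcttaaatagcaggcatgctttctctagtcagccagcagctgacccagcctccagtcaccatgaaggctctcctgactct
Cd68: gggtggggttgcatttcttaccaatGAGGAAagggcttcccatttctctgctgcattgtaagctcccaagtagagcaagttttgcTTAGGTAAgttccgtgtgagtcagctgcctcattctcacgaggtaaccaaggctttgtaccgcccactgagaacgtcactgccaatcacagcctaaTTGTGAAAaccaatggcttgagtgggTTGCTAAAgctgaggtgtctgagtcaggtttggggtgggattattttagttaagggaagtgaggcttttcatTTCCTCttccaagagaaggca
Without gaps, the lysozyme windows were identical at 201 of 300 positions, or 67%. Each held 1 C/EBP match, at different places, and no exact match to GAGGAA. Shorter or variant PU.1 sites were not searched for. The Cd68 window held 2 PU.1 and 3 C/EBP matches, and no matches overlapped. Of 32851 windows of this length, 28.3% held GAGGAA and 40.7% held TTNNGNAA.

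The remaining 6 markers did not pass. Of these, Cd163 and Ptprc ran within 3.51 to 4.39, the range of 3 genes of the Y chromosome on these arrays. Adgre1, Mrc1 and Cd14 did not exceed 5.04, under the all-gene median level of 5.99. At such low levels a fall in these genes could go unseen. Only Cd68 lay above that median. Cd68, a lysosomal glycoprotein of macrophages, stood at 7.46, 7.67, 7.56 and 7.73 in the old arrays, against 7.22, 8.13, 7.09 and 7.79 in the young arrays. The old values fell inside the wide range of the young ones, and the difference of 0.05 ± 0.20 (SE) had an interval of -0.40 to 0.50 (adjusted p = 0.909). Adgre1, which encodes an adhesion receptor that marks mouse macrophages, stood at 4.56, 4.45, 4.45 and 4.45 in the old arrays, against 4.41, 4.50, 4.50 and 4.38 in the young arrays. The groups overlapped, with a difference of 0.03 ± 0.06 (SE; adjusted p = 0.795). Cd163, the scavenger receptor for haemoglobin bound to haptoglobin, ran from 3.97 to 4.17 in the old and from 3.90 to 4.13 in the young arrays (adjusted p = 0.801).

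Mrc1, the mannose receptor of tissue macrophages, stood at 4.91, 4.59, 4.42 and 4.76 in the old arrays, against 4.39, 4.44, 4.49 and 4.50 in the young arrays. One old value lay among the young ones, and the difference was 0.215 ± 0.10 (SE; adjusted p = 0.179). Without old replicate 3 it was 0.30, with an adjusted p of 0.0494. Cd14, the lipopolysaccharide co-receptor, ran from 4.55 to 5.04 in the old and from 4.70 to 4.91 in the young arrays (adjusted p = 0.732). Ptprc encodes CD45, the leukocyte marker against which cells were sorted. It stood at 3.80, 3.92, 3.82 and 3.99 in the old arrays, against 3.76, 3.74, 3.70 and 3.64 in the young arrays. All old values were above all young ones, by a small margin, with a difference of 0.17 ± 0.06 (SE; adjusted p = 0.101).

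**Figure D1:**
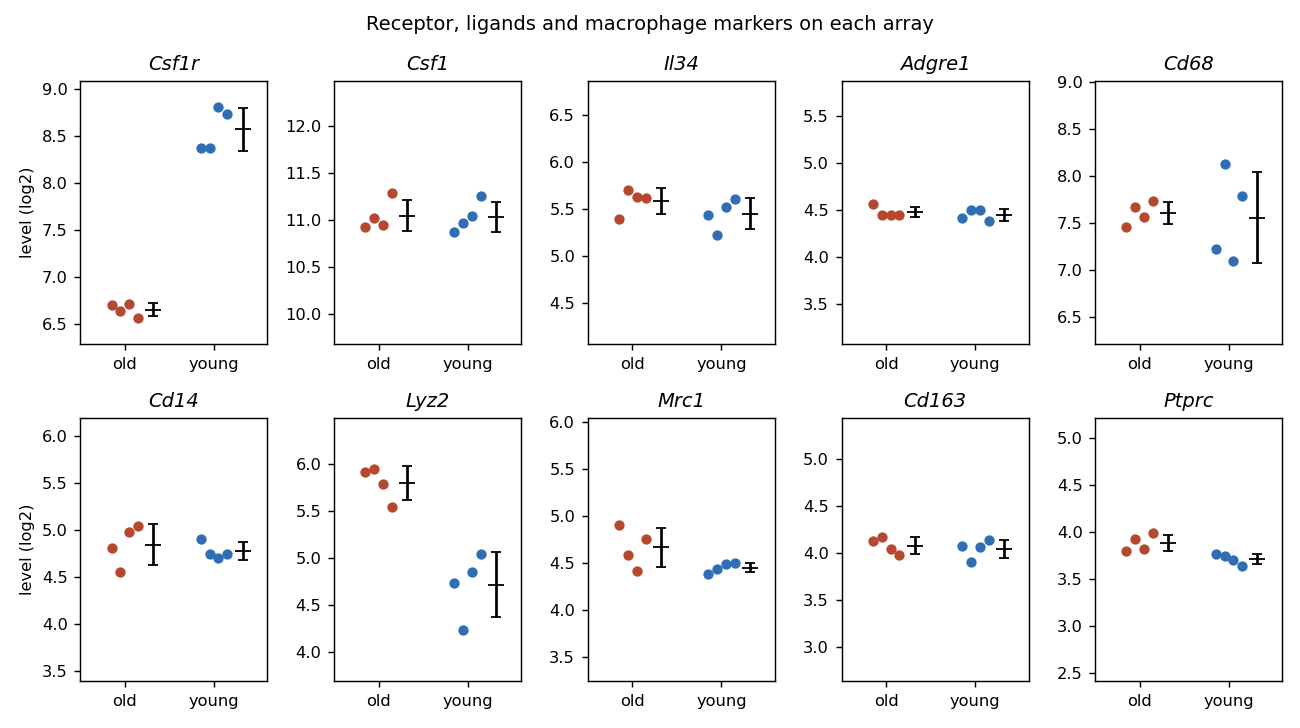
Level of each gene on every array (log2; points: arrays; bars: mean ± SD, n = 4 per group), each panel spanning the same log2 range. Csf1r lies lower and Lyz2 higher in all 4 old arrays, while Csf1, Il34, Cd68, Adgre1, Cd14, Mrc1 and Cd163 overlap between the ages.

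**Figure D2:**
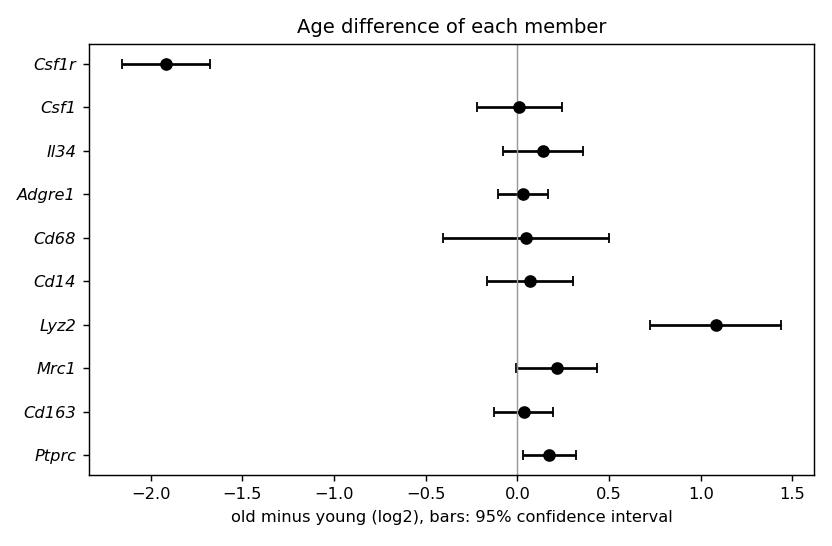
Difference in level, old minus young (log2), with its 95% confidence interval from the fit across all genes. Csf1r was selected on its difference, so its interval, from -2.16 to -1.68, is a description and not a test. The interval of Lyz2 runs from 0.73 to 1.44, and that of Csf1 spans 0.

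A wider list of macrophage genes was set beside these. Of 40 listed, 39 were measured: 5 were higher in old fibroblasts, 2 were lower and 32 did not pass, with a median difference of 0.06 against 0.01 over all genes. These are 12.8% higher and 5.13% lower, near the 9.87% and 7.66% of all genes, so the counts do not set the list apart. In 30 of the 39 the difference lay within 0.25 of zero. The mean level of the list ran from 5.05 to 5.20 in the old and from 5.04 to 5.11 in the young arrays. In 19 of the 39 genes the level was under 5 on all 8 arrays, where 3 genes of the Y chromosome ran from 3.51 to 4.39. Among those that did not pass, C1qa, a complement subunit made by macrophages, differed by -0.02 (adjusted p = 0.892), and Itgam, the integrin CD11b, by 0.03 (adjusted p = 0.863). Spi1, which encodes PU.1, differed by -0.17 (adjusted p = 0.167; -0.23 and adjusted p = 0.0481 without old replicate 3), and Fcer1g, the common Fc receptor gamma chain, by 0.37 (adjusted p = 0.0508; passing under 6 alternative settings, 3 of them with an array left out). These 4 were named after their values were seen.

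Both genes that fell are receptors. Fcgr3, a low-affinity receptor for IgG, stood at 4.51, 4.92, 5.21 and 4.92 in the old arrays, against 6.12, 6.13, 6.33 and 6.25 in the young arrays. The groups were well apart, with a difference of -1.32 ± 0.13 (SE; adjusted p = 1.76e-04). Mertk, a kinase that takes part in the uptake of dying cells, stood at 8.46, 9.36, 9.37 and 9.12 in the old arrays, against 9.43, 9.70, 10.13 and 10.26 in the young arrays. Its groups came close without overlap, with a difference of -0.80 ± 0.23 (SE; adjusted p = 0.0378). Leaving out old replicate 1 or 4 or young replicate 2, 3 or 4 left Mertk without a call, at an adjusted p of up to 0.101, and 1 gene of the list lower.

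The 5 genes that rose were led by Ctss, the lysosomal protease cathepsin S. It stood at 5.75, 6.36, 6.00 and 5.47 in the old arrays, against 4.88, 4.26, 4.39 and 4.89 in the young arrays. All old values were higher, with a difference of 1.29 ± 0.20 (SE; adjusted p = 0.00205). Tyrobp, the signalling adaptor DAP12, stood at 5.44, 5.89, 5.29 and 5.22 in the old arrays, against 4.71, 4.54, 4.89 and 5.04 in the young arrays. Its groups did not overlap, and its level was 1.59-fold higher (difference 0.665; adjusted p = 0.0148). Cd53, a leukocyte tetraspanin, was higher by 0.63 (adjusted p = 0.0139). Hpgds, a prostaglandin D synthase, was higher by 0.46 (adjusted p = 0.0132), and Emilin2, a secreted glycoprotein, by 0.375 (adjusted p = 0.00499). In all 5 the old values lay above the young ones. With the background measure as a covariate no gene of the list passed in either direction, against 67 higher and 98 lower over all genes. Cd53, Hpgds and Emilin2 were named after their values were seen.

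Markers of the other immune cells were read in the same way. Their counts are to be read against the 9.87% of all genes that rose and the 7.66% that fell. Of 13 measured dendritic and Langerhans cell genes, 2 rose (15.4%) and none fell. H2-Ab1, a class II antigen-presenting chain, was higher by 1.145, at 9.73 ± 0.34 in old and 8.58 ± 0.25 in young fibroblasts (SD, n = 4 each; adjusted p = 0.00156), and its partner H2-Eb1 by 0.99 (adjusted p = 0.00224). H2-Aa differed by 0.675 (adjusted p = 0.0601) and Cd74, the class II invariant chain, by 0.725 (adjusted p = 0.0887), both named after their values were seen; H2-Aa passed under 6 and Cd74 under 2 alternative settings. None passed among 8 neutrophil, 10 mast cell, 11 T and NK cell and 6 B cell genes. Above the all-gene median level of 5.99 lay 0 of the neutrophil and 0 of the mast cell genes. The same held for 2 of the T and NK cell genes and 1 of the B cell genes. At the low levels of the others a fall could go unseen. Of 12 keratinocyte genes, 4 rose (33.3%), led by the keratin Krt14 at 1.65 (adjusted p = 0.00469), and Trp63, the epidermal factor p63, fell by 0.405 (adjusted p = 0.0237). The mean level of that list ran from 7.55 to 8.60 in the old and from 6.79 to 7.92 in the young arrays. Of 11 endothelial genes, 3 rose (27.3%), namely Tek, the angiopoietin receptor, at 1.73 (adjusted p = 0.00111), Flt1 at 0.61 (adjusted p = 8.29e-04) and Tie1 at 0.35 (adjusted p = 0.0379), and Egfl7 fell by 0.305 (adjusted p = 0.0333). Of 14 fibroblast genes, 3 passed, or 21.4% against 17.5% of all genes: Prrx1 rose by 0.32 (adjusted p = 0.00636), and Twist2 and the collagen gene Col3a1 fell by 0.33 (adjusted p = 0.0179) and 0.28 (adjusted p = 0.00765). One gene rose in each of the mural cell, Schwann and melanocyte, and adipocyte lists, namely Kcnj8 at 0.64 (adjusted p = 0.0429), Mitf at 0.305 (adjusted p = 0.0299) and Fabp4 at 3.015 (adjusted p = 0.00701). Among the keratinocyte calls, those of Krt5, Perp, Krt79 and Trp63 were lost with at least 1 array left out. So were those of Tie1, Egfl7, Kcnj8 and Mitf. With its most variable probe set Trp63 changed sign and did not pass. The part of these cell types in the differences was not tested.

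**Figure D3:**
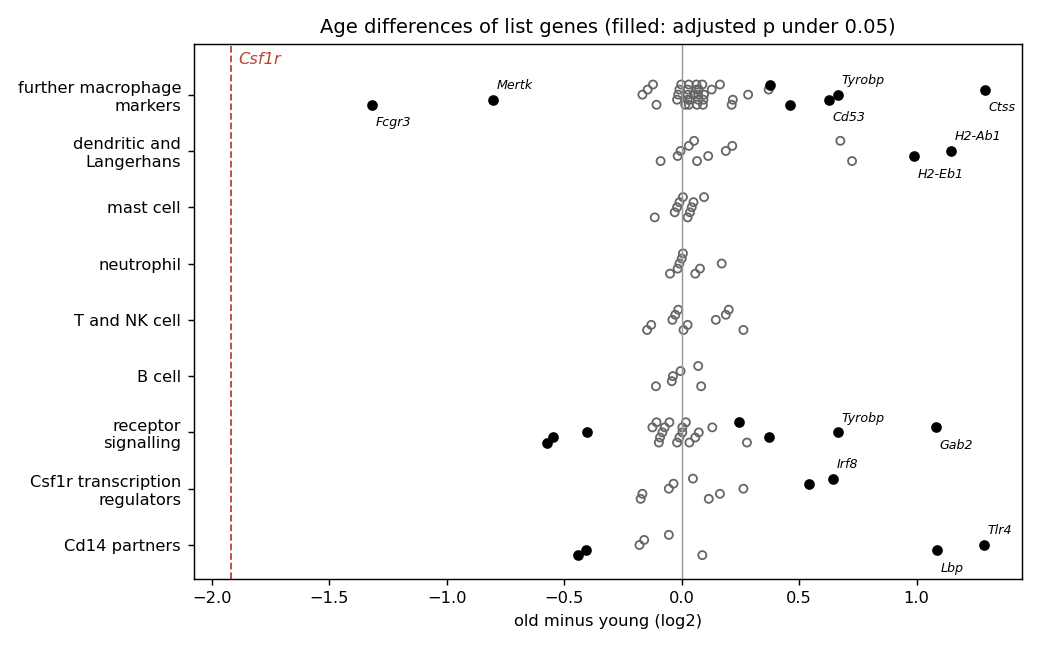
Difference in level, old minus young (log2), of each measured gene of 9 lists (rows); filled points passed the test and those beyond 0.6 are named. Most macrophage, mast cell, neutrophil, T, NK and B cell genes lie near 0. Most genes of these lists also have levels below the all-gene median, where a fall could go unseen. None reaches the dashed line at the difference of Csf1r, which was selected on it. Only 18 of all 17097 genes lie below that line.

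Among the co-receptors, Ptprz1, a phosphatase that binds IL-34, and Trem2, a myeloid receptor that signals through DAP12, did not pass, at 0.08 (adjusted p = 0.582) and -0.145 (adjusted p = 0.245). Of 24 measured genes that act downstream of the receptor, 4 rose and 3 fell, or 29.2% in either direction against 17.5% of all genes, with a median difference of 0.00. The largest rise was in Gab2, a docking adaptor, at 8.49, 8.03, 7.71 and 8.13 in the old arrays, against 7.51, 6.92, 6.76 and 6.84 in the young arrays. The groups did not overlap, and the difference was 1.08 ± 0.19 (SE; adjusted p = 0.00383). Tyrobp belongs to this list too. The kinase Yes1 rose by 0.37 (adjusted p = 0.0230) and the transcription factor Stat5a by 0.24 (adjusted p = 0.0436). The kinase Src fell by 0.55 (adjusted p = 0.00155), Socs1, an inhibitor of cytokine signalling, differed by -0.575 (adjusted p = 0.0107), and the adaptor Dok1 by -0.41 (adjusted p = 0.0234). Stat5a and Dok1, with Yes1, were named after their values were seen. Another probe set of Stat5a, the more variable one, gave -0.01, and the call of Stat5a was also lost when any array but old replicate 1 was left out. Yes1 lost its call without old replicate 4 or young replicate 2 or 3, and Dok1 without young replicate 1, 2 or 3.

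Of 10 measured transcription factors known to act on Csf1r in myeloid cells, 2 rose (20%, against 9.87% of all genes) and none fell. Irf8, needed for macrophage and dendritic cell development, stood at 5.57, 6.44, 6.02 and 6.12 in the old arrays, against 5.04, 5.23, 5.67 and 5.63 in the young arrays. The groups overlapped slightly, with a difference of 0.64 ± 0.19 (SE; adjusted p = 0.0434), and the call was lost when any of 5 arrays (old replicate 2, 3 or 4, young replicate 1 or 2) was left out. Maf rose by 0.54 (adjusted p = 0.0149).

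None of the 4 related receptors in the type III kinase family passed. Pdgfra and Pdgfrb, the receptors of fibroblasts and mural cells, differed by 0.16 (adjusted p = 0.307) and 0.07 (adjusted p = 0.730). Kit lay between 3.69 and 3.75 in the old and between 3.57 and 3.72 in the young arrays, and Flt3 between 3.96 and 4.39 in the old and between 4.07 and 4.23 in the young arrays. Of 5 measured ligands of this family, 2 fell (40%, against 7.66% of all genes). Pdgfd fell by 0.80 (adjusted p = 0.00176) and Pdgfc fell by 0.725 (adjusted p = 0.0232; no call without young replicate 1 or 4), while Kitl at 0.49 (adjusted p = 0.176) and Flt3l at 0.29 (adjusted p = 0.208) did not pass. None of 5 genes of the other colony-stimulating factors and their receptors passed.

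Of 8 partners of Cd14 in sensing bacterial products, 2 rose and 2 fell, or 50% in either direction against 17.5% of all genes. Tlr4, the lipopolysaccharide receptor, stood at 7.90, 7.32, 7.29 and 7.56 in the old arrays, against 6.08, 6.29, 6.28 and 6.28 in the young arrays. The groups were far apart (adjusted p = 1.84e-04; 2.44-fold higher). Lbp, which carries lipopolysaccharide to CD14, was 2.12-fold higher (adjusted p = 4.11e-04). Tlr2 and its partner Tlr6 fell by 0.44 (adjusted p = 0.0375) and 0.41 (adjusted p = 0.00261). Tlr6 ran from 3.92 to 4.09 in the old and from 4.29 to 4.47 in the young arrays. These levels lie in or near the range of 3 genes of the Y chromosome, 3.51 to 4.39. The Tlr2 call was lost when any of 5 arrays (old replicate 1 or 3, young replicate 1, 3 or 4) was left out. Of 12 scavenger and lectin receptors related to Cd163, Mrc1 or Cd68, 3 passed, or 25% against 17.5% of all genes. Pla2r1 rose by 0.50 (adjusted p = 0.0218), and Mrc2, the fibroblast relative of Mrc1, and Msr1 fell by 0.64 (adjusted p = 5.88e-04) and 0.41 (adjusted p = 0.0166). Pla2r1 lost its call without old replicate 4 or young replicate 2, 3 or 4. Msr1 and Pla2r1 both lost theirs when each gene was the mean over all its probe sets.

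The genes beside Csf1r on its chromosome did not pass. Pdgfrb, the next gene on one side, is given above, and Hmgxb3, the next on the other, differed by -0.15 (adjusted p = 0.217). The second neighbours Cdx1 and Slc26a2 differed by -0.07 (adjusted p = 0.574) and -0.055 (adjusted p = 0.866).

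The profile of Csf1r over the 8 arrays was compared with that of every other gene by the root mean square difference of levels centred on each gene's mean. The 5 nearest were Adcy1 at 0.191, Kazald1 at 0.192, Meg3 at 0.195, Armcx4 at 0.200 and Clec11a at 0.213. Their differences in old minus young were -1.905 for Adcy1, -1.78 for Kazald1, -1.645 for Meg3, -1.975 for Armcx4 and -1.69 for Clec11a. Adcy1 makes cyclic AMP, Meg3 is a maternally expressed long noncoding RNA and Clec11a is a secreted growth factor of the skeleton. None of these 5 is in the macrophage lists. The other genes of the axis lay farther off, from 0.979 for Csf1 to 1.51 for Lyz2. This distance rests mostly on the age difference, on which Csf1r was selected. Genes without a like fall therefore lie far off by construction, and no conclusion on macrophage RNA is drawn from it.

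**Figure D4:**
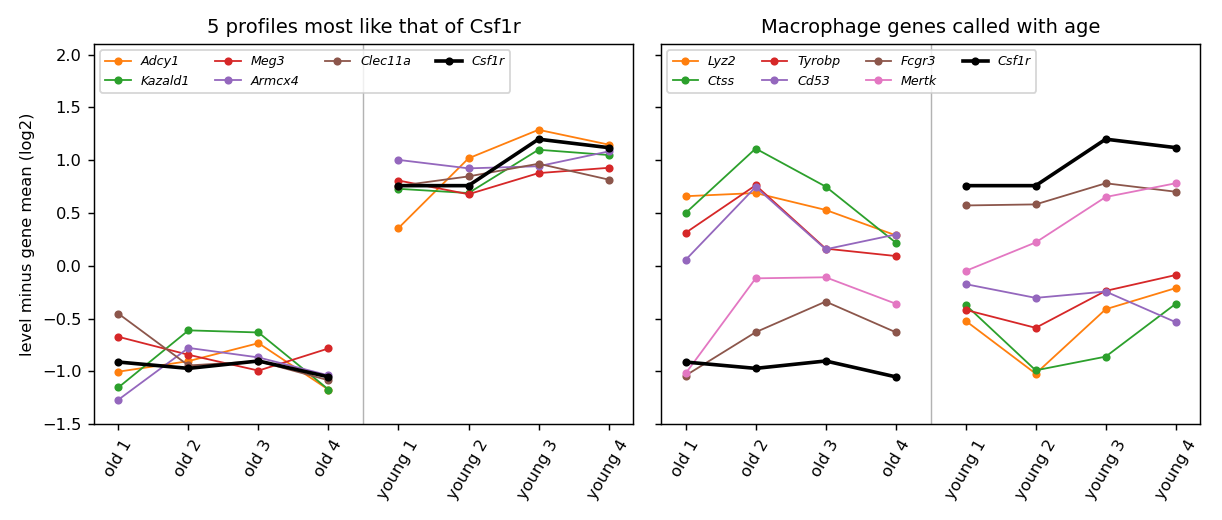
Level minus the gene's mean over 8 arrays (log2), old arrays left and young arrays right, for Csf1r (black) with the 5 nearest profiles (first panel) and with 6 macrophage genes that passed the test (second panel); lines join the points of a gene and replicates have no order. Lyz2, Ctss, Tyrobp and Cd53 are higher in the old arrays, and Fcgr3 and Mertk are lower there with Csf1r.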

How the data were processed

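The values analysed are the log2 expression values deposited by the authors for 45141 probe sets on 8 arrays, made with RMA in the affy package per the submitters' processing notes (versions not given in the sources used here). Total RNA was amplified before labelling, per the labels' protocols. No further normalization was applied. Probe sets with 1 gene symbol in the platform annotation (28898) were reduced to 17097 genes by the highest mean. Differences between the ages were tested in limma 3.58.1 (lmFit and eBayes, R 4.3.3). The p-values were adjusted by Benjamini-Hochberg across the 17097 genes, and an adjusted p under 0.05 counts as passing. The procedure was tested on simulated data with independent noise for each gene and array. That simulation held no background difference between the ages, so it does not bear on the one seen in these arrays. The members and lists were chosen with earlier results of these data known. Named are the members, the 4 largest passing differences of each list, all genes of lists of up to 7, chromosomal neighbours and the 5 nearest profiles, with exceptions stated. The number of arrays limits the precision. Each array is 1 mouse. Alternatives were a replicate block, scalings, probe set rules, a dim-gene filter, other variance models, the background covariate and each array left out. Neighbour order came from RefSeq (GRCm38.p6); figures were drawn with matplotlib 3.10.9.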

Additional observations from a re-analysis of the deposited data

Results flagged for a closer look

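In 204 pairs of a gene and an age group, 9 values stood apart from the other 3 arrays of their group by more than Dixon's critical ratio for 4 values, and chance gives about 1 in 20. Adgre1 had 4.56 in old replicate 1, above the other old arrays. Pdgfc had 4.19 in old replicate 3, below the others. Csf3r had 3.79 in old replicate 1, below the others. Tlr6 had 4.09 in old replicate 4, above the others and still below every young array. Epcam had 4.99 in old replicate 4, above the others. Cdx1 had 4.21 in old replicate 3, above the others. Tlr4 had 6.08 in young replicate 1, below the others. Twist2 had 10.30 in young replicate 1, above the others. Eps8l3 had 4.96 in young replicate 3, below the others.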

How the results depend on the processing

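Of 49 genes named as passing, 5 passed under every alternative that gave a value and 32 under all but the background covariate. With that covariate 44 lost their call, and 16 did with at least 1 array left out. The 5 were Tek, Meg3, Armcx4, Clec11a and F13a1. Meg3, Armcx4 and Clec11a were named as nearest profiles of Csf1r and F13a1 after its values were seen. Tek was named as the largest passing difference of the endothelial list. An age difference thus helped to choose all 5, and most of the 49 were likewise named because they passed. With the background covariate 67 genes were higher and 98 lower over all genes, and no member (0) and none of the macrophage list (0 higher, 0 lower) passed; Lyz2 had 1.08 (adjusted p = 0.192). That background measure and age cannot be told apart. The dim-gene filter kept 3 members and 5 macrophage genes, fewer being tested, with 0 members higher and 2 list genes higher and 1 lower. Trend and robust variance left 1 list gene lower. With arrays left out, members higher ran from 1 to 2 and list genes lower from 1 to 3, the third being Spi1 without old replicate 3 (-0.23, adjusted p = 0.0481); Mrc1 ran from 0.135 to 0.298. Apart from Stat5a and Trp63, signs turned for differences that did not pass in either setting, most of them near 0, and the cause was not tested. Csf1 turned with median centring (-0.015), quantile normalization (-0.0195), array weights (-0.0599) and the covariate (-0.11). Cd68 did so with quantile normalization (-0.0025) and the covariate (-0.22). The covariate also turned Adgre1 (-0.0623), Flt3 (0.20), C1qa (0.0289), Cdx1 (0.0768) and Slc26a2 (0.0386). Larger differences that it turned were those of Mrc1 (from 0.215 to -0.19) and Spi1 (from -0.17 to 0.0824). Flt3 turned with array weights (0.0379), and Hmgxb3 with the most variable probe set (from -0.15 to 0.0075). With that probe set Stat5a (-0.01) and Trp63 (0.175) turned and no longer passed. With arrays left out, Csf1 ran from -0.07 to 0.0833, Cd68 from -0.11 to 0.24, Cd163 from -0.0117 to 0.07, C1qa from -0.0592 to 0.0375, Itgam from -0.0242 to 0.0758, Flt3 from -0.0783 to 0.065, Lyz1 from -0.0017 to 0.05, Pdgfrb from -0.0117 to 0.16 and Slc26a2 from -0.19 to 0.08.

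The replicate numbers are shared between ages, but the labels do not tie a number to a collection day. Deviations of same-numbered arrays from their group means correlated at 0.285, 0.052, -0.044 and 0.224. Not every pair was over 0.1, so no pairing was assumed; a shared collection day within a number was neither shown nor excluded. With the number as a replicate block, 1838 genes were higher and 1268 lower, the counts over members (1 higher) and the macrophage list (5 higher, 2 lower) were the same, and the difference of Lyz2 had an adjusted p of 0.00293. Among the named genes, Tlr2 (adjusted p = 0.0557) and Mitf (adjusted p = 0.0543) lost their call under the block, Kitl (adjusted p = 0.0211) and Cd24a (adjusted p = 0.00643) gained one, and no other call changed. Egfl7, Tie1, Kcnj8, Mitf, Trp63, Krt5, Perp and Krt79 were among the calls lost with an array left out. Of the genes that did not pass, Cd24a, Cd74, Epcam, Fcer1g, Flt3l, H2-Aa, Kitl, Mrc1, Pecam1 and Spi1 passed under at least 1 alternative.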

Other observations

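F13a1, the A chain of coagulation factor XIII and a known marker of dermal macrophages in human skin, was named after its values were seen. It stood at 7.33, 7.56, 7.60 and 7.69 in the old arrays, against 9.16, 9.50, 9.28 and 9.10 in the young arrays. The groups were far apart, with a 3.28-fold lower level in old fibroblasts (limma, adjusted p = 1.05e-05), and it was below the threshold under every alternative run, the background covariate included (adjusted p = 0.013). F13a1 was in none of the gene lists. Of the 39 measured genes of the wider macrophage list, 2 were lower and 5 higher. Cd163 and Mrc1 differed by 0.035 and 0.215 without passing, and Lyz2 was higher by 1.08.

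The highest of the 8 arrays was old replicate 2 for Lyz2 (5.95), Ctss (6.36), Tyrobp (5.89), Cd53 (5.31), Irf8 (6.44), H2-Ab1 (10.07), H2-Eb1 (8.97) and Cd74 (7.66), a set chosen after its values were seen. Csf1r on that array was 6.64, inside the range of the other old arrays. Other genes of the same lists were highest elsewhere. Hpgds, which also rose, was highest in old replicate 4 and Emilin2, another that rose, in old replicate 1. Mrc1 and Adgre1 were highest in old replicate 1, and Ptprc and Cd14 in old replicate 4. Maf was highest in old replicate 3 and Cd68 in young replicate 2, while Cd163 was highest in old replicate 2. The share of all genes highest in old replicate 2 was not counted, and the cause was not tested.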
